A study of Bos taurus with 10 samples.

Results

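TAGLN, CNN1, LMOD1, RGS5 and PDGFRB are genes commonly used to mark vascular smooth muscle cells and pericytes. Their expression was measured in right ventricular tissue of 10 male Holstein calves, 1 array per calf, as part of a study of hypoxia-induced pulmonary hypertension. The hypoxia group, titled PH calf in the labels, held 5 calves that spent 14 days at low barometric pressure matching an altitude of 4570 m. The control group held 5 calves of matching age at ambient pressure at 1525 m. Exposure started between postnatal days 3 and 7, and no genotype, drug or other agent is listed for either group. The members were all probe sets whose single gene symbol in the platform annotation was one of these 5 names. This gave 5 probe sets, 1 per gene, of 24016 tested, and 5 genes of 9155 with a name.

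Smooth muscle cells form the contractile layer of arteries, including the coronary branches within the ventricular wall, and pericytes sit on the outside of capillaries. Smooth muscle cells shorten when myosin pulls on actin filaments, and proteins bound along those filaments set how strongly they do so. TAGLN (transgelin, also called SM22 alpha) and CNN1 (calponin 1) bind actin filaments, and calponin 1 restrains the myosin motor in biochemical assays. LMOD1 (leiomodin 1) starts new actin filaments. RGS5 shortens signalling by G protein coupled receptors and is abundant in pericytes. PDGFRB is the receptor through which platelet-derived growth factor B recruits and keeps pericytes.

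Values are log2 expression after RMA, with which the authors corrected the background, brought the arrays to 1 distribution and summarised the short probes of each set. A difference of 1 is therefore a 2-fold change. Differences are hypoxia minus control ± SE from limma with n = 5 calves per group, and a probe set passed at a Benjamini-Hochberg adjusted p of 0.05 over all 24016. Of all probe sets, 652 passed (2.71%), 396 of them higher (1.65%) and 256 lower (1.07%) in hypoxia. Array medians lay between 5.48 and 5.54. Markers of cardiomyocytes, the cells that dominate ventricular tissue, were bright in both groups, with a mean over 11 measured genes of 13.4 ± 0.10 (SD) in hypoxia and 13.4 ± 0.03 in controls. Some of these genes, such as TNNI3 and TNNC1, read 14.2 in both groups, near the highest value of all arrays (14.4). Similar means there do not show similar cell content. MYH7, another of the 11, passed on 1 of its 3 probe sets but not on the brightest. In tissue RNA, fewer cells of a type and less RNA per cell cannot be told apart.

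None of the 5 genes passed (limma, adjusted p = 0.0808 to 0.720), against 2.71% of all probe sets. Before adjustment, CNN1 and RGS5 had p under 0.05, as did 17.7% of all probe sets. The differences were 1.61 for CNN1, 0.45 for RGS5, 0.23 for TAGLN, -0.14 for LMOD1 and -0.15 for PDGFRB, and the 95% intervals of TAGLN, LMOD1 and PDGFRB include 0. The median difference of the 5 genes was 0.23, beside -0.02 over all probe sets. Of the 5, CNN1 had the widest spread between calves.

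**Figure D1:**
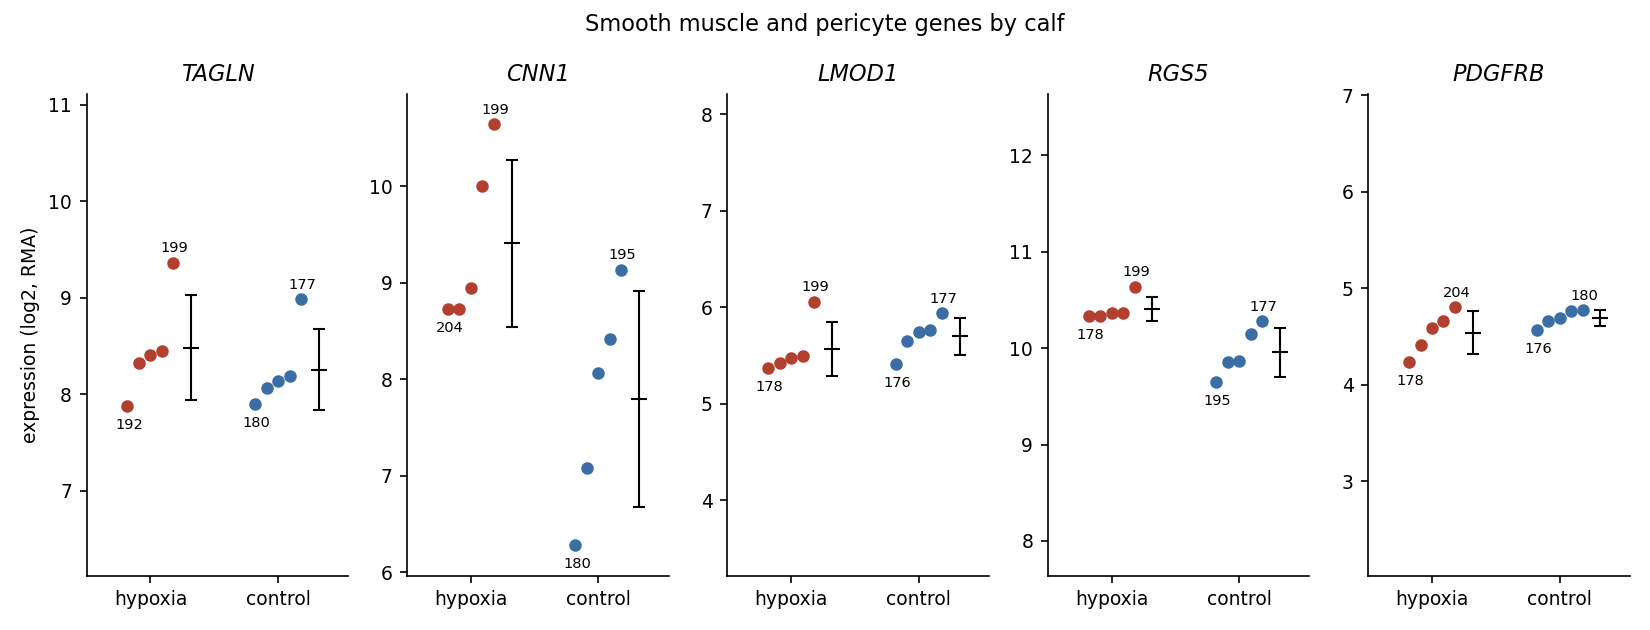
Log2 expression (vertical axis, 5 log2 units high in every panel) of the 5 genes in each hypoxia calf (left, red) and control calf (right, blue), with the mean and SD of each group to the right of its points and the highest and lowest calf of each group numbered. RGS5 is the gene whose groups do not overlap, with 10.34 as the lowest hypoxia value and 10.28 as the highest control value, and CNN1 covers the widest range within both groups.

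CNN1 had the largest difference of the 5 genes and also the largest spread. It read 8.95, 10.003, 8.73, 10.64 and 8.73 in hypoxia calves 173, 178, 192, 199 and 204, against 8.41, 8.06, 6.28, 7.08 and 9.13 in control calves 176, 177, 180, 181 and 195. Hypoxia calves 178 and 199 lay above every control, while the other 3 hypoxia calves lay below control calf 195. The group means were 9.41 ± 0.87 in hypoxia and 7.80 ± 1.12 in controls (SD).

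The CNN1 difference was 1.61 ± 0.53, or 3.06-fold, with a 95% interval of 0.45 to 2.78 (limma, unadjusted p = 0.0107, adjusted p = 0.134). Its size exceeded that of nearly the whole array, with only 0.275% of probe sets differing by more, but 99.6% of probe sets had a smaller spread within groups. Control calf 180 and control calf 195 lay at opposite ends of the control group. Without hypoxia calves 178 and 199 the difference was 1.01 (adjusted p = 0.491), and without control calf 195 it was 1.95 (adjusted p = 0.0744).

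The CNN1 difference was also read within each run of calf numbers, and whether it differed between the runs was not tested. The lower numbers, up to 181, held 2 hypoxia and 4 control calves, and the upper numbers, from 192, held 3 hypoxia calves and 1 control calf. The CNN1 difference was 2.01 ± 0.57 in the lower run and 0.23 ± 0.84 in the upper run, where control calf 195 was the only control, and it was 1.37 ± 0.58 with the run as a covariate (limma, adjusted p = 0.225, 0.958 and 0.273). The labels do not say whether the runs were handled apart.

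TAGLN differed little between the groups. It read 8.41, 8.32, 7.87, 9.36 and 8.45 in hypoxia calves 173, 178, 192, 199 and 204, against 8.18, 8.98, 7.90, 8.06 and 8.14 in control calves 176, 177, 180, 181 and 195. One calf stood high in each group, hypoxia calf 199 and control calf 177, and the other values of the groups overlapped. The difference was 0.23 ± 0.26, with a 95% interval of -0.35 to 0.81 (limma, adjusted p = 0.720). The interval leaves room for a rise of up to 1.75-fold or a small decrease. Without hypoxia calf 199 the difference was 0.0095, and without control calf 177 it was 0.41 (adjusted p = 0.992 and 0.456).

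LMOD1 showed the same calves at the top. It read 5.49, 5.37, 5.48, 6.06 and 5.42 in hypoxia calves 173, 178, 192, 199 and 204, against 5.41, 5.94, 5.76, 5.65 and 5.74 in control calves 176, 177, 180, 181 and 195. The other 4 hypoxia values lay within 0.12 of each other and below 4 of the controls, with hypoxia calf 199 above all 10. The difference was -0.14 ± 0.14 (95% interval -0.45 to 0.18; limma, adjusted p = 0.693). Without hypoxia calf 199 it was -0.26 (unadjusted p = 0.0409, adjusted p = 0.295).

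RGS5 was higher in each hypoxia calf than in any control, by a small margin. It read 10.34, 10.34, 10.36, 10.63 and 10.36 in hypoxia calves 173, 178, 192, 199 and 204, against 10.14, 10.28, 9.85, 9.86 and 9.65 in control calves 176, 177, 180, 181 and 195. The groups did not overlap, and the lowest hypoxia calf exceeded the highest control by 0.06. All hypoxia calves lay above all controls in 2.71% of probe sets. The means were 10.41 ± 0.13 in hypoxia and 9.96 ± 0.25 in controls (SD).

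The RGS5 difference was 0.45 ± 0.13, or 1.37-fold, with a 95% interval of 0.18 to 0.72, and it did not pass (limma, unadjusted p = 0.00379, adjusted p = 0.0808). A smaller p was found for 4.68% of all probe sets. With each calf left out in turn the difference stayed between 0.37 and 0.53, and the adjusted p between 0.0578 and 0.166. It was 0.30 ± 0.16 in the lower run of calf numbers, 0.81 ± 0.19 in the upper run and 0.49 ± 0.14 with the run as a covariate (adjusted p = 0.529, 0.334 and 0.122).

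PDGFRB did not separate the groups. It read 4.66, 4.24, 4.59, 4.41 and 4.80 in hypoxia calves 173, 178, 192, 199 and 204, against 4.57, 4.77, 4.77, 4.66 and 4.69 in control calves 176, 177, 180, 181 and 195. The controls lay close together and the hypoxia calves spread on both sides of them, with calves 178 and 199 lowest. The difference was -0.15 ± 0.11 (95% interval -0.39 to 0.09; limma, adjusted p = 0.534), and without those calves it was -0.0087. The probe set was dim, with 38.5% of all probe sets dimmer over the 10 arrays.

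The differences of the 5 genes were set against each other within calves, as 10 pairs. RGS5 moved by 0.60 ± 0.17 more than PDGFRB and by 0.59 ± 0.16 more than LMOD1 (exact two-sided permutation test over calves, p = 0.0159 for each). CNN1 moved by 1.75 ± 0.61 more than LMOD1 (exact permutation p = 0.0238). After adjustment over the 10 pairs each of these had p = 0.0794 by the exact permutation test, so no pair passed. For TAGLN minus CNN1, which share the calponin repeat, the value was -1.39 ± 0.53, CNN1 having the larger difference (exact permutation p = 0.0476, adjusted p = 0.0952).

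Variation between calves of the same group was compared between the genes, and no pair of genes passed after adjustment. Over 10 calves with each group's mean subtracted, TAGLN gave its highest values of Pearson's r with LMOD1 (r = 0.75, exact permutation p = 0.0421, Spearman's coefficient = 0.25, exact permutation p = 0.507) and with RGS5 (r = 0.72, exact permutation p = 0.0180, Spearman's coefficient = 0.72, exact permutation p = 0.0161). By Spearman's coefficient, CNN1 came before LMOD1, at 0.50 with TAGLN (exact permutation p = 0.147). Adjusted over 10 pairs of genes, the lowest exact permutation p was 0.180 for r and 0.161 for Spearman's coefficient. Without hypoxia calf 199 and control calf 177 the same values of r were -0.32 and 0.07, so both values rest on those calves. Hypoxia calf 199 exceeded its group mean by 0.88 for TAGLN, 0.49 for LMOD1 and 0.23 for RGS5, and control calf 177 by 0.73, 0.24 and 0.32. CNN1 also exceeded its group mean in both calves, by 1.23 in hypoxia calf 199 and by 0.27 in control calf 177. Among controls, CNN1 was highest in calf 195. For CNN1 and PDGFRB the coefficients were negative and did not pass before or after adjustment (r = -0.57, exact permutation p = 0.0697, adjusted p = 0.232, Spearman's coefficient = -0.56, exact permutation p = 0.0650, adjusted p = 0.325), and r was -0.69 without control calves 180 and 195.

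**Figure D2:**
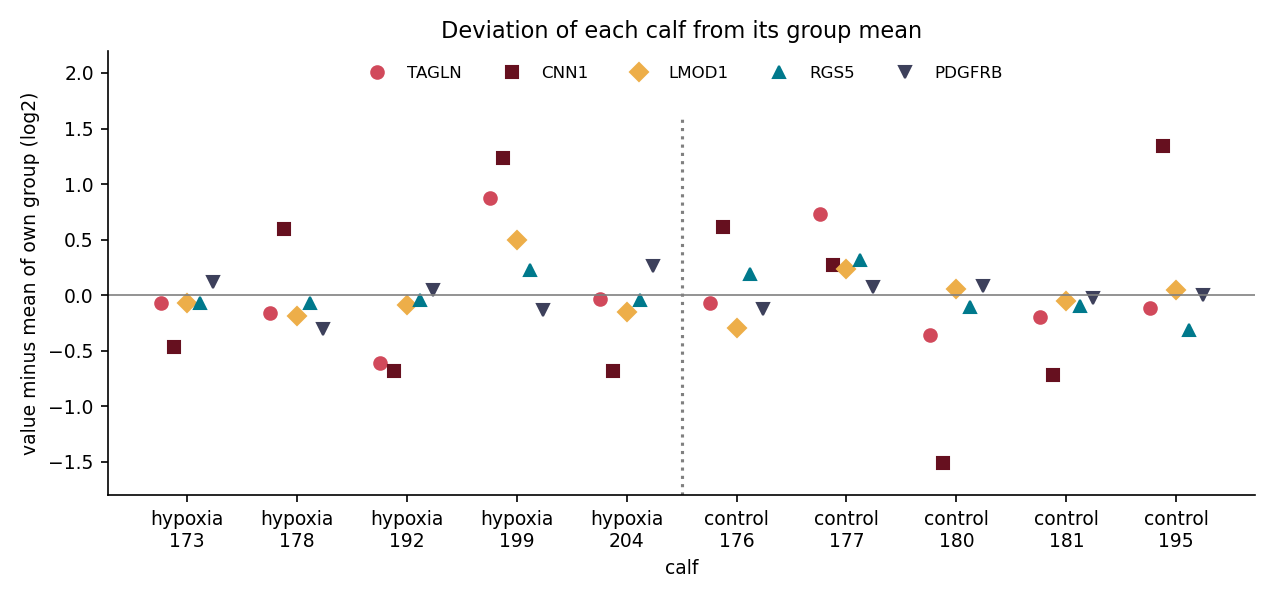
Deviation of each calf (horizontal axis, hypoxia calves left, control calves right) from the mean of its own group in log2 units (vertical axis), with 1 symbol per gene. Hypoxia calf 199 and control calf 177 lie above 0 for TAGLN, LMOD1, RGS5 and CNN1 together. CNN1 deviates most in control calves 180 and 195 and hypoxia calf 199.

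Markers of other structures were read in the same calves. Of 12 listed great vessel, atrial and conduction markers, 4 were measured, and their mean was 8.28 in hypoxia calf 199, where the other hypoxia calves had 7.34 to 7.43 and the controls 6.34 to 7.51. Control calf 177, at 7.12, was inside the control range. The height of calf 199 came mostly from NPPA, the gene of atrial natriuretic peptide, at 12.9 in that calf, where the other hypoxia calves had 9.89 to 10.6. Without NPPA the mean of the other 3 genes was 6.75 in hypoxia calf 199, where the other hypoxia calves had 6.26 to 6.48 and the controls 6.13 to 6.56. ELN (elastin), the great vessel gene among them, read 6.64 in hypoxia calf 199, and NR2F2 read 7.91, each inside the ranges of both groups. SLN read 5.70 in hypoxia calf 199, the highest of all 10 calves. The other hypoxia calves had 4.45 to 4.94 for SLN and the controls 4.08 to 5.04. Of 13 listed markers of myofibroblasts, contractile fibroblasts, 9 were measured, with means of 9.11 and 8.45 in hypoxia calves 199 and 178, where CNN1 was highest, 7.32 to 8.29 in the other hypoxia calves and 7.16 to 7.67 in controls. Their part in the values of the 5 genes was not tested.

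Like the members, the other well-known smooth muscle markers did not pass. Of 7 measured genes of the smooth muscle marker list, 3 were the members TAGLN, CNN1 and LMOD1, leaving 4 others. Among the 7, 0 passed, beside 2.17% of named genes called higher and 1.49% called lower. CNN1 and CALD1 were the 2 at an unadjusted p under 0.05 (limma). The list median was 0.23, the value of TAGLN itself, beside -0.01 over all 9155 named genes. Over the 4 other genes the median was 0.24. CALD1 (caldesmon, an actin-binding brake on myosin) differed by 0.41 ± 0.14 (adjusted p = 0.141). ACTA2, smooth muscle alpha-actin, differed by 0.49 ± 0.33, MYH11, the smooth muscle myosin heavy chain, by 0.06 ± 0.33, and SMTN (smoothelin, a protein of contractile smooth muscle) by 0.03 ± 0.19 (adjusted p = 0.495 to 0.957).

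ACTA2 and MYH11 were highest of all 10 calves in control calf 177, the control with the most TAGLN, LMOD1 and RGS5. ACTA2 read 9.76, 9.73, 8.83, 10.12 and 9.09 in hypoxia calves 173, 178, 192, 199 and 204, against 8.40, 10.18, 8.65, 8.98 and 8.88 in control calves 176, 177, 180, 181 and 195. MYH11 lay between 7.80 and 8.56 in hypoxia calves, while control calf 177 had 9.39 and its 4 fellow controls had 7.23 to 8.08. Hypoxia calf 199 had the highest ACTA2 and MYH11 of its group. CALD1 and SMTN, the other genes of the list outside the members, did not share this pattern. In control calf 177 CALD1 was lowest of all 10 calves, at 5.02, and SMTN, at 9.12, lay below the control mean of 9.33. In hypoxia calf 199 SMTN was lowest of its group, just below hypoxia calf 178 at 9.01, and CALD1, at 5.68, was in the middle of its group. The mean of the 7 markers, 3 of which are members, was 8.03 ± 0.28 in hypoxia and 7.64 ± 0.29 in controls (SD).

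**Figure D3:**
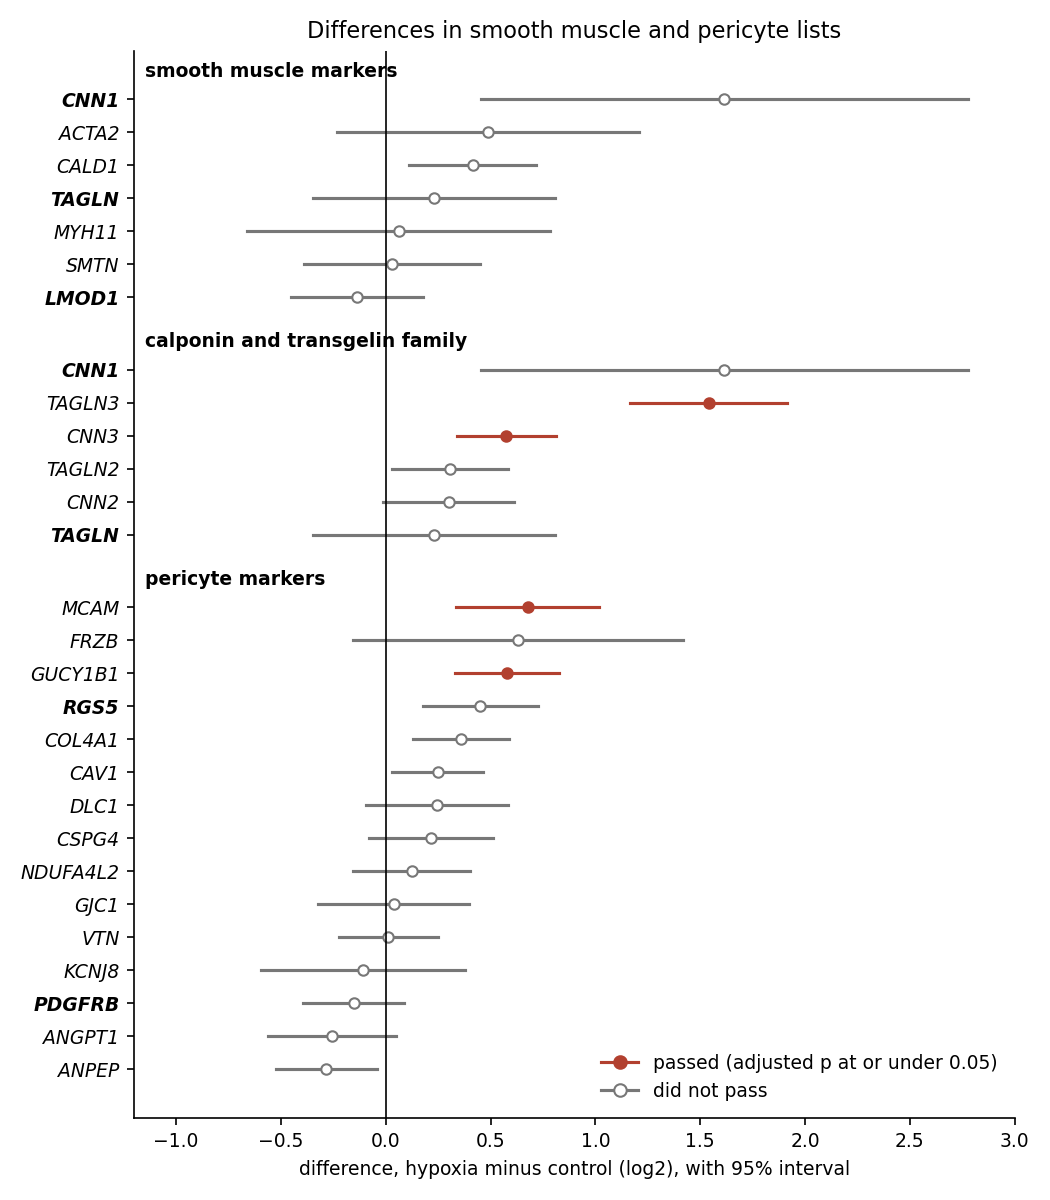
Difference, hypoxia minus control (horizontal axis, log2), with its 95% interval from limma for each measured gene of 3 lists, the 5 genes described here in bold. Filled red points passed and open grey points did not. TAGLN3, CNN3, MCAM and GUCY1B1 passed, and the interval of CNN1 is the widest.

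TAGLN3 and CNN3, relatives of TAGLN and CNN1, rose in hypoxia, while TAGLN and CNN1 themselves did not pass. Of 6 measured genes of the calponin and transgelin family, 2 rose and 0 fell, beside 2.17% of named genes higher and 1.49% lower. The family median was 0.44. TAGLN3, a transgelin known mainly from neurons, read 5.14 to 6.12 in hypoxia calves, against 4.13 to 4.44 in controls, with no overlap. It rose by 1.54 ± 0.17, or 2.91-fold (limma, adjusted p = 0.00339), a size close to that of CNN1, whose SE was 0.53. CNN3, a calponin found in many cell types, read 8.97 to 9.39 in hypoxia and 8.41 to 8.76 in controls, and rose by 0.58 ± 0.11 (adjusted p = 0.0211). CNN2 and TAGLN2, the broadly expressed forms, differed by 0.30 ± 0.14 and 0.31 ± 0.13 (adjusted p = 0.303 and 0.229). The call on CNN3 ended without control calf 181 (adjusted p = 0.0585).

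The family of LMOD1 had no call. Leiomodins and tropomodulins start or cap actin filaments at the pointed end. Of 4 measured, 0 passed and 2 had an unadjusted p under 0.05 (limma), beside 2.71% and 17.7% of all probe sets. The median was -0.12. TMOD3, the broadly expressed tropomodulin, differed by 0.47 ± 0.13 (limma, adjusted p = 0.0742). TMOD1, the form of heart muscle, differed by -0.37 ± 0.16, and TMOD4, a form of skeletal muscle, by -0.11 ± 0.11 (adjusted p = 0.245 and 0.672).

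In the wider list of the smooth muscle contractile apparatus, 4 of 31 measured genes rose and 0 fell, beside 2.17% of named genes higher and 1.49% lower. The median was 0.35. HSPB6, a small heat shock protein bound to actin, rose by 1.97 ± 0.21, ACTN1, the actin cross-linker alpha-actinin 1, by 1.27 ± 0.19, CFL2, the muscle cofilin that severs actin, by 0.91 ± 0.17, and DES (desmin) by 0.52 ± 0.10 (limma, adjusted p = 0.00245 to 0.0209). HSPB6, CFL2 and DES are also abundant in cardiac muscle. ACTN1 passed on 1 of 3 probe sets. None of the 4 is confined to vascular smooth muscle, and the list's more specific markers, given above, did not pass. Without control calf 181 the call on DES ended (adjusted p = 0.0585).

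The measured regulators of the smooth muscle programme had no call. Of 40 listed genes 20 were measured, and the gene of myocardin was not among these. Of the 20, 0 passed and 6 had an unadjusted p under 0.05 (limma), beside 2.71% and 17.7% of all probe sets. The median was -0.02. FOXO4, a transcription factor that restrains myocardin, differed by -0.54 ± 0.13, TEAD4, a partner of YAP, by 0.98 ± 0.25, and SMAD2, a mediator of transforming growth factor beta, by 0.39 ± 0.11 (adjusted p = 0.0536, 0.0624 and 0.0772). JAG1, a ligand of Notch receptors, differed by 0.56 ± 0.24 on its brighter probe set (adjusted p = 0.256), and the dimmer one rose by 0.63 (adjusted p = 0.0282). FOXO4 passed when hypoxia calf 204 was left out (adjusted p = 0.0394), and TEAD4 when hypoxia calf 173 or 199 was.

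Of 25 measured genes of contraction signalling, 1 rose and 0 fell, beside 2.17% of named genes higher and 1.49% lower. The median was 0.008, with 13 positive and 12 negative differences. GUCY1B1, the beta subunit of the nitric oxide receptor guanylate cyclase, read 10.14 to 10.43 in hypoxia calves, against 9.40 to 9.95 in controls. It rose by 0.58 ± 0.11 (limma, adjusted p = 0.0242). GUCY1A1, the alpha subunit, differed by 0.02 ± 0.11 on the brighter of its 2 probe sets (limma, adjusted p = 0.953). The prostaglandin receptor PTGER4 differed by -0.62 ± 0.17 and the angiotensin receptor AGTR1 by -0.93 ± 0.27 (adjusted p = 0.0799 and 0.0891). ROCK2, a kinase that keeps myosin phosphorylated, differed by 0.60 ± 0.20 on its brighter probe set (adjusted p = 0.140), and the dimmer one rose by 0.68 (adjusted p = 0.0340). ITPR1 also passed on 1 of 5 probe sets, but its brightest differed by -0.16 ± 0.11 (limma, adjusted p = 0.525). The count above uses the brightest probe sets. The call on GUCY1B1 ended when hypoxia calf 178 or 204 or control calf 176 was left out (highest adjusted p = 0.0552).

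Of 31 listed pericyte markers 15 were measured. Among these 2 rose and 0 fell, beside 2.17% of named genes higher and 1.49% lower. The median was 0.22, and 0.12 when each gene's probe sets were averaged. The 2 were GUCY1B1, also counted under contraction signalling above, and MCAM, an adhesion molecule of pericytes, smooth muscle and endothelium. MCAM read 7.83 to 8.32 in hypoxia calves, against 7.17 to 7.81 in controls, a gap of 0.02 between the groups. It rose by 0.68 ± 0.16 (limma, adjusted p = 0.0430), but kept its call in 3 of 10 leave-one-out fits, losing it when hypoxia calf 173, 178, 199 or 204 or control calf 176, 180 or 181 was dropped (highest adjusted p = 0.105). COL4A1, a basement membrane collagen made by pericytes and endothelium, differed by 0.36 ± 0.10 (adjusted p = 0.0955). RGS5 came next to MCAM by p, and PDGFRB was among the 4 genes of the list with a negative difference. The list mean was 7.46 ± 0.06 in hypoxia and 7.27 ± 0.08 in controls (SD), with narrowly overlapping ranges of 7.39 to 7.53 and 7.18 to 7.40.

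Of 23 listed PDGF ligands, receptors and effectors, 14 were measured, and no PDGF ligand was among these. Of the 14, 1 fell and 0 rose, beside 1.49% of named genes lower and 2.17% higher. The median was 0.06. PDGFRA, the alpha receptor typical of fibroblasts and the partner of PDGFRB, read 7.34 to 7.999 in hypoxia calves, against 8.06 to 8.84 in controls, and fell by 0.89 ± 0.17 on the log2 scale (limma, adjusted p = 0.0213). It passed on 1 of 3 probe sets, and its call ended when control calf 177 or 181 was dropped (highest adjusted p = 0.0596). Downstream, RASA1, a Ras inhibitor that docks on PDGFRB, differed by 0.36 ± 0.09 (adjusted p = 0.0501). PIK3R1 and PIK3CA, the regulatory and catalytic subunits of phosphoinositide 3-kinase, differed by -0.62 ± 0.20 and 0.51 ± 0.18 (adjusted p = 0.122 and 0.169).

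RGS5 was the member of its family with the smallest p. Of 12 measured genes with an RGS domain, 0 passed and 3 had an unadjusted p under 0.05 (limma), beside 2.71% and 17.7% of all probe sets. The median was 0.05. RGS1, a form of lymphocytes and other leukocytes, differed by 2.23 ± 0.75, RGS10 by 0.52 ± 0.23 and RGS16 by 0.55 ± 0.26 (adjusted p = 0.142 to 0.297). Without control calf 181 RGS1 passed (adjusted p = 0.0235).

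**Figure D4:**
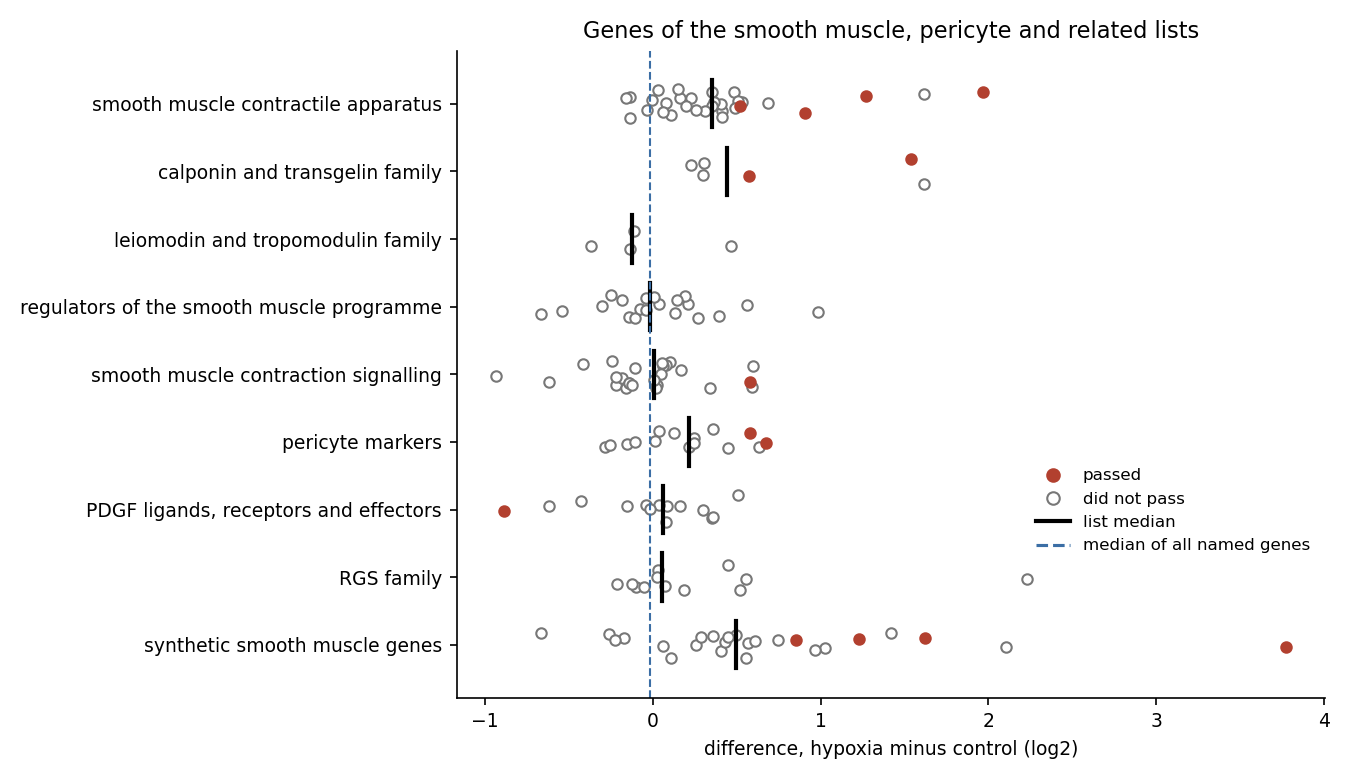
Difference, hypoxia minus control (horizontal axis, log2), of each measured gene in 9 lists (rows), 1 point per gene, with filled red points for genes that passed. The black bars are list medians, which run from -0.12 for leiomodins and tropomodulins to 0.50 for synthetic smooth muscle genes, and the dashed line is the median of all named genes, -0.01.

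Smooth muscle cells that leave the contractile state express another set of genes, many of which other cells make too. Of 25 measured genes of this synthetic list, 4 rose and 0 fell, beside 2.17% of named genes higher and 1.49% lower. The median was 0.50. SPP1, the matrix protein osteopontin, rose by 3.77 ± 0.75, CD44, a receptor for osteopontin and hyaluronan, by 1.62 ± 0.32, LGALS3, the lectin galectin 3, by 1.23 ± 0.26, and VIM (vimentin) by 0.86 ± 0.14 (limma, adjusted p = 0.0123 to 0.0329). VCAN passed on 2 of 3 probe sets but is not counted, as its brightest differed by 1.42 ± 0.45 (limma, adjusted p = 0.120). Macrophages express SPP1, CD44 and LGALS3, and fibroblasts are among the cells that express VIM. Of 16 measured fibroblast markers 2 rose, VIM among them, and 2 fell. The mean of 12 measured macrophage markers was 7.15 ± 0.34 in hypoxia and 6.68 ± 0.35 in controls (SD), and its part in these values was not tested. The call on SPP1 ended when hypoxia calf 178, 192 or 199 or control calf 177 or 181 was dropped, that on LGALS3 with hypoxia calf 192, 199 or 204 or control calf 177 or 195, and that on CD44 with hypoxia calf 178 or control calf 177 or 181 (highest adjusted p = 0.0732).

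The genes whose values followed each member most closely between calves of a group were read off 4577 or 4578 other named genes at or above the median level, as a description over 10 calves with group means subtracted. TAGLN was most like SCPEP1 (r = 0.94), a serine carboxypeptidase, BGN (r = 0.91), a matrix proteoglycan, and FAM118A (r = 0.90). CNN1 was most like CACNB1 (r = 0.93), a calcium channel subunit, SEC61A1 (r = 0.92) and RPN2 (r = 0.92), which work in protein entry to and glycosylation in the endoplasmic reticulum. RGS5 was most like MPHOSPH10, EXOC5 and TDRD3 (r = 0.87, 0.86 and 0.86). PDGFRB was most like VEGFB, a growth factor of the VEGF family, ANXA3 and LIPE, the hormone-sensitive lipase (r = 0.97, 0.95 and 0.93), and LMOD1 was most like RNF135, GRN and MAFG (r = 0.91, 0.91 and 0.88). Without the 2 calves in which the member lay farthest from its median, r stayed at 0.78 or above for 12 of these 15 genes and was 0.59 for BGN, 0.61 for GRN and 0.69 for RNF135. Each was picked as the highest of these values, so no p is given. The calves that remained were part of that choice, so r without the 2 calves is no separate check. LMOD1 and PDGFRB lay below that level and were themselves not ranked.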

How the data were processed

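Total RNA from right ventricular tissue was labelled with biotin and read on Affymetrix bovine arrays, per the labels' protocols. The authors deposited log2 values made with RMA, per the submitters' processing notes, and software, version and probe set definitions are not given in the sources used here. Quantile normalization removes a shift shared by all transcripts. The 2 deposited tables were equal in all 24016 shared probe sets, and 112 Affymetrix controls were left out. Groups came from titles, nothing was paired, and the labels give no batch. Calves are separate animals, and the number of arrays limits the precision.

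Gene names came from the platform annotation, where 13292 probe sets have 1 symbol, 86 several and 10638 none. Genes with several probe sets were read on the brightest. limma 3.58.1 in R 4.3.3 (lmFit, eBayes) was fitted to all probe sets with Benjamini-Hochberg adjustment. In simulated data of 24016 probe sets with the spread of these arrays it found 37.3% of differences of 0.5, 82.7% of 1 and 97.3% of 2. These rates are averages over probe sets of every spread, with normal noise. The spread within groups was smaller in 99.6% of probe sets than for CNN1 and in 94.3% than for TAGLN. The rates therefore do not hold for these 2 genes. Figures used matplotlib 3.10.9.

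The members, lists and alternatives were chosen with earlier results of these data known, and the tests of pairs of differences were added after seeing values. Genes named were the members, up to 4 per pathway list by p (up to 8 if passing), up to 2 per cell type list and 3 per member by likeness, with 1 gene of the contraction signalling list not reported here. ACTA2, MYH11, SMTN, CNN2, ELN, SLN, ROCK2, ITPR1, GUCY1A1, VCAN, TNNI3, TNNC1, MYH7 and the dimmer JAG1 probe set were added from the lists after their values were seen. Alternatives were scaling, a filter on dim probe sets, variance models, array weights, runs of calf numbers, a threshold of 0.01 and leaving out calves.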

Additional observations from a re-analysis of the deposited data

Results flagged for a closer look

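Each group of 5 calves was searched for a calf whose gap to its nearest neighbour took up more than 0.71 of the group's range, a limit that chance exceeds in about 1 of 20 groups. Over the 136 groups searched, some of which share genes, chance would give about 7 such calves, and 7 were found. Among 5 members, TAGLN stood out in control calf 177 at 8.98 (the other controls 7.90 to 8.18), RGS5 in hypoxia calf 199 at 10.63 (the others 10.34 to 10.36) and LMOD1 in hypoxia calf 199 at 6.06 (the others 5.37 to 5.49). Hypoxia calf 199 also stood out for the mean of great vessel, atrial and conduction markers, 8.28 (the others 7.34 to 7.43), and for NPPA, the gene of atrial natriuretic peptide and a member of that list, at 12.9 (the others 9.89 to 10.6). Hypoxia calf 204 stood out for CALD1 at 6.08 (the others 5.57 to 5.71). Control calf 195 stood out for PLN, the cardiac calcium pump inhibitor phospholamban, at 12.7 (the other controls 13.2 to 13.3).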

How the results depend on the processing

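None of the 5 genes passed under any of 22 alternatives each, and directions held except for TAGLN, which was -0.0092 without hypoxia calves 178 and 199 (the cause was not tested). With each calf left out in turn, TAGLN ranged from 0.0095 to 0.41, CNN1 from 1.24 to 1.95, RGS5 from 0.37 to 0.53, PDGFRB from -0.22 to -0.077 and LMOD1 from -0.26 to -0.075. Leaving out control calf 177 and hypoxia calf 199 together was chosen after seeing the data. The count of 652 probe sets was 37 without shared variance, 217 with the run of calf numbers as a covariate, 31 in the lower run, 0 in the upper run (limma, with 2578 at an unadjusted p under 0.05), 155 without hypoxia calves 178 and 199, 77 at an adjusted p of 0.01, and 241 to 605 with 1 calf left out. The median of pericyte markers was 0.12 when each gene's probe sets were averaged. In the upper run alone RGS16 (-0.10), TMOD4 (0.12) and AHSP (0.11) had the opposite sign, as had HBG (-0.20) without hypoxia calves 178 and 199. The values of 45 list genes were recomputed 944 times, a check chosen after seeing the data, and 108 of these changed the call. Averaging probe sets gives no other value for the members, which have 1 each. No paired analysis was possible because the groups share no calf numbers.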

Other observations

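Vessel-lining cells were read through 14 measured endothelial markers. Of these, 0 passed and 4 had an unadjusted p under 0.05 (limma), beside 2.71% and 17.7% of all probe sets. Positive differences were found for 11, and the median was 0.24. PLVAP, a protein of endothelial diaphragms, differed by 1.40 ± 0.42 and PECAM1, an endothelial junction protein, by 0.58 ± 0.19 (adjusted p = 0.101 and 0.121). The list mean was 7.45 ± 0.26 in hypoxia and 7.16 ± 0.15 in controls (SD), with overlapping ranges of 7.19 to 7.80 and 7.02 to 7.41. Of 16 measured fibroblast markers 2 rose and 2 fell, beside 2.17% of named genes higher and 1.49% lower. Their median was 0.14, with list means of 9.73 ± 0.28 and 9.57 ± 0.21 in hypoxia and control calves.

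Markers of skeletal muscle and red cells were dim. Of 7 measured skeletal muscle markers 0 passed (limma, with 0 at an unadjusted p under 0.05), with list means of 4.37 ± 0.12 in hypoxia and 4.42 ± 0.18 in controls (SD), TNNC2 at -0.22 ± 0.13 and TNNI2 at -0.13 ± 0.10. Of 7 measured erythroid markers 0 passed (limma, with 0 at an unadjusted p under 0.05), with list means of 4.58 ± 0.28 and 4.65 ± 0.33 in hypoxia and control calves, AHSP at -0.21 ± 0.11 and HBG at 0.36 ± 0.31. Beside these counts, 2.71% of all probe sets passed and 17.7% had an unadjusted p under 0.05 (limma). Of 9 measured myofibroblast markers COL12A1 rose by 1.82 ± 0.42 on 1 of 3 probe sets (limma, adjusted p = 0.0428), and TNC differed by 2.11 ± 0.66 (adjusted p = 0.118). The COL12A1 call was kept in 3 of 10 leave-one-out fits. Of 12 measured macrophage markers CD5L rose by 2.23 ± 0.42 (limma, adjusted p = 0.0208), a call that ended when control calf 177 or 181 was left out (highest adjusted p = 0.0538), and CD68 differed by 0.93 ± 0.28 (adjusted p = 0.103).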
